A study of Mus musculus with 8 samples.

Results

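The genes described here mark hepatocyte position along the liver lobule or report Wnt signalling in hepatocytes. They were given as a list of 10 symbols: the pericentral, Wnt-driven genes Glul, Oat, Axin2, Lgr5, Tbx3, Rhbg, Slc1a2 and Slc13a3, and the periportal genes Gls2 and Cdh1. Of these 10, 9 had a probe set annotated with that symbol alone, among 22180 genes tested, and Gls2, which encodes the liver glutaminase, was not analysed here. The periportal side of the list therefore rested on Cdh1. Where a gene had more than 1 such probe set, the brightest over all arrays was taken.

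Liver RNA of 27-day-old C57BL/6N mice was measured on Affymetrix whole-transcript arrays, 1 mouse per array. The 4 knockout mice carried an albumin-Cre transgene and 2 floxed Sco1 alleles. Sco1 encodes a mitochondrial copper chaperone of cytochrome c oxidase assembly, and the albumin promoter drives Cre in hepatocytes, not in the endothelial, Kupffer or stellate cells of the liver. The other 4 mice are called wild-type after their source label, and all 4 titles read Sco1fl/fl. By their genotype labels, however, mice 1 and 3 of this group had Cre and 1 floxed allele, and mice 2 and 4 had 2 floxed alleles without Cre.

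In the liver lobule, blood runs from the portal tract to the central vein, and hepatocytes along that path divide their tasks. Endothelial cells of the central vein release Wnt ligands and R-spondin 3, which act through Frizzled, LRP and LGR receptors to stabilise beta-catenin in the neighbouring hepatocytes and switch on genes such as Glul. Periportal hepatocytes make urea and break glutamine down, and a rim of pericentral hepatocytes captures the ammonium that escaped and turns it into glutamine.

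Slc13a3, which encodes a sodium-coupled dicarboxylate transporter, was higher in the knockout livers by 0.55 ± 0.10 log2 units (SE, n = 4 each), or 1.47-fold, and was the 1 gene of the 9 that passed limma's test (Benjamini-Hochberg adjusted p = 0.0251 over every gene measured). Over all 22180 genes, 1.15% passed, 0.433% as higher and 0.717% as lower. Glul and Oat, which stand at the glutamine and ornithine ends of pericentral nitrogen handling, lay in opposite directions, at -0.20 ± 0.08 and 0.21 ± 0.08, and neither passed (adjusted p = 0.255 and 0.237). The direct Wnt feedback genes Axin2 and Lgr5 both differed by -0.01 (adjusted p = 0.958 and 0.969). Among the 8 pericentral genes 3 were above 0 and 5 below, with a median difference of -0.01 beside 0.03 over all genes and -0.02 over the brighter 11090 genes, among which all 8 lie. That median was above 0 in 11 of 21 alternative settings of the test, and ran from -0.09 to 0.05. All values are log2 units of the deposited expression values, in which a difference of 1 is 2-fold, and all differences are knockout minus wild-type.

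**Figure D1:**
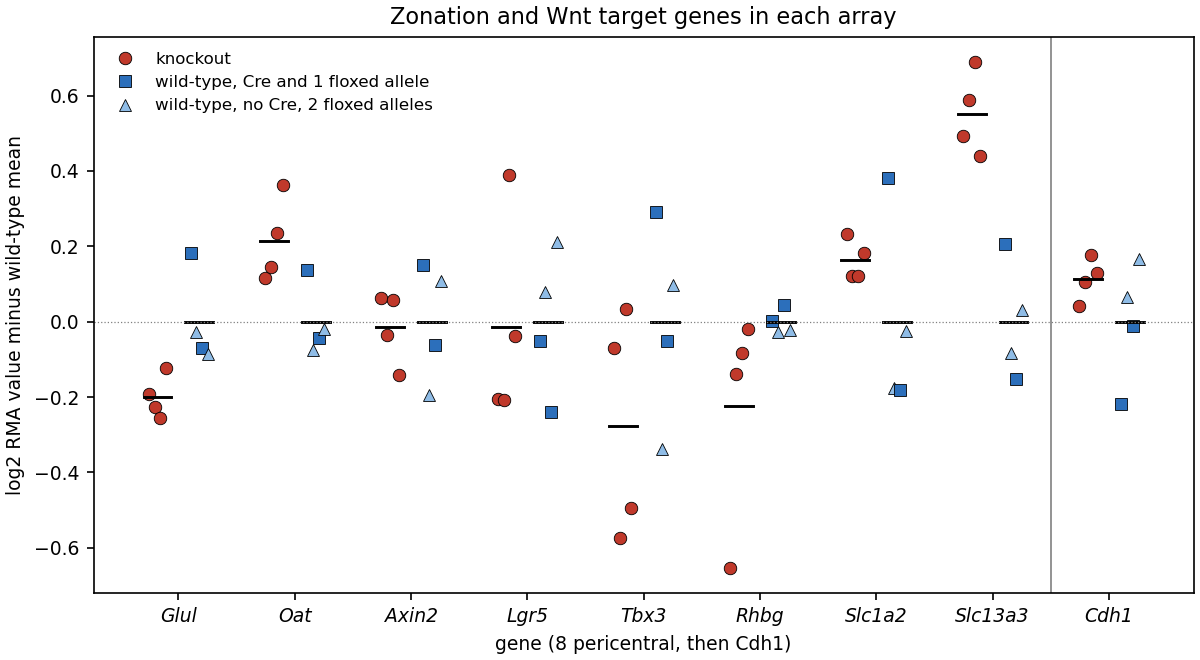
Each point is 1 array, plotted as its log2 value minus the wild-type mean of that gene, with horizontal lines at the group means and symbols for the knockout mice and the 2 genotype classes of wild-type mice. The knockout points lie above all wild-type points for Slc13a3 and below all of them for Glul, while Rhbg has 1 low knockout array and Axin2 and Lgr5 overlap widely.

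Of the 10 genes, 5 (Glul, Oat, Axin2, Slc1a2 and Slc13a3) were found in a RefSeq promoter table of the assembly GRCm38.p6. The 250 bases before the start site are shown for Slc13a3, the gene that passed the test, and for Slc1a2, the 1 promoter of the 5 that held the letters CTTTGAT of the TCF/LEF binding motif, through which beta-catenin reaches its targets. The motif was searched on both strands. Its match lies on the minus strand, so that the sequence below reads ATCAAAG, in capitals, from position -207 relative to the start site. The same letters occurred in 3.21% of 32851 mouse promoter windows of that length.
Slc13a3, chr2:165473198-165473447, minus strand: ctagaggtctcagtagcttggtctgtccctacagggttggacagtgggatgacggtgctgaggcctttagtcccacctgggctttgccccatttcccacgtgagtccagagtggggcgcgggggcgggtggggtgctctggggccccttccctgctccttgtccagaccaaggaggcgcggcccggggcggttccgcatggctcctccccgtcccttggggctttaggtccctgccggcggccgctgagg
Slc1a2, chr2:102706188-102706437, plus strand: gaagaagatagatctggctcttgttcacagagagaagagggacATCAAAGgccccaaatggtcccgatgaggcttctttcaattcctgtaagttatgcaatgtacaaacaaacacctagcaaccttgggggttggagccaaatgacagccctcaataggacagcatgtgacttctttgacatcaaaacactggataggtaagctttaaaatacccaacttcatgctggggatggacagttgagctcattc

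Array quality and tissue were examined first. Array medians lay between 5.79 and 5.89, and arrays of a group correlated across genes at 0.9915 or more. Sco1 stood at 7.48 to 7.72 in the knockout and 7.84 to 8.19 in the wild-type livers, a difference of -0.41 ± 0.09 that missed the threshold (limma adjusted p = 0.0633). Hepatocyte markers were bright in every array, Alb at 13.83 to 13.88 and Hnf4a at 11.96 to 12.27. Mouse 1 of each group stood apart in the clock output gene Dbp, at 9.66 and 9.86 against 6.87 to 7.33 in the other 6 arrays. Knockout mouse 4 was low in the Y-linked genes, with Kdm5d at 7.37 against 8.40 to 8.78 in the other 7, while Xist was at 4.59 to 5.06 in all 8. The labels gave no sex, litter or collection time. A whole-liver array gives no position within the lobule, and fewer cells of a type and less RNA per cell cannot be told apart in it.

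Slc13a3 imports succinate, citrate and other dicarboxylates and tricarboxylates with sodium. It was measured at 9.60, 9.69, 9.79 and 9.54 in knockout mice 1 to 4 and at 9.31, 9.02, 8.95 and 9.13 in wild-type mice 1 to 4. The lowest knockout array lay above the highest wild-type array, which was that of mouse 1. Group means were 9.66 ± 0.11 and 9.10 ± 0.16 (SD, n = 4 each), and the 95% interval of the difference ran from 0.34 to 0.76. The exact two-sided permutation p was 0.0286, the smallest that 4 arrays against 4 can give. Both classes of control lay at the same height, 9.13 in mice with Cre and 9.08 without it.

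The size of the Slc13a3 difference varied little with the settings of the test, from 0.50 to 0.64 over 21 alternatives, whereas the call was kept in 12 of them, at adjusted p from 0.0132 to 0.179. It was lost without knockout mouse 1 (0.0531), 2 (0.0606) or 3 (0.0704) and without wild-type mouse 2 (0.0762), 3 (0.0762) or 4 (0.0682), and kept without knockout mouse 4 (0.0395) or wild-type mouse 1 (0.0222). Against the 2 controls with Cre alone the difference was 0.53 (adjusted p = 0.179), and against the 2 without Cre it was 0.58 (0.113). In both cases the control mean rested on 2 arrays, while the spread was taken from all 8. Without both mouse 1 arrays, which were high in Dbp, it was 0.64 (adjusted p = 0.0476).

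**Figure D2:**
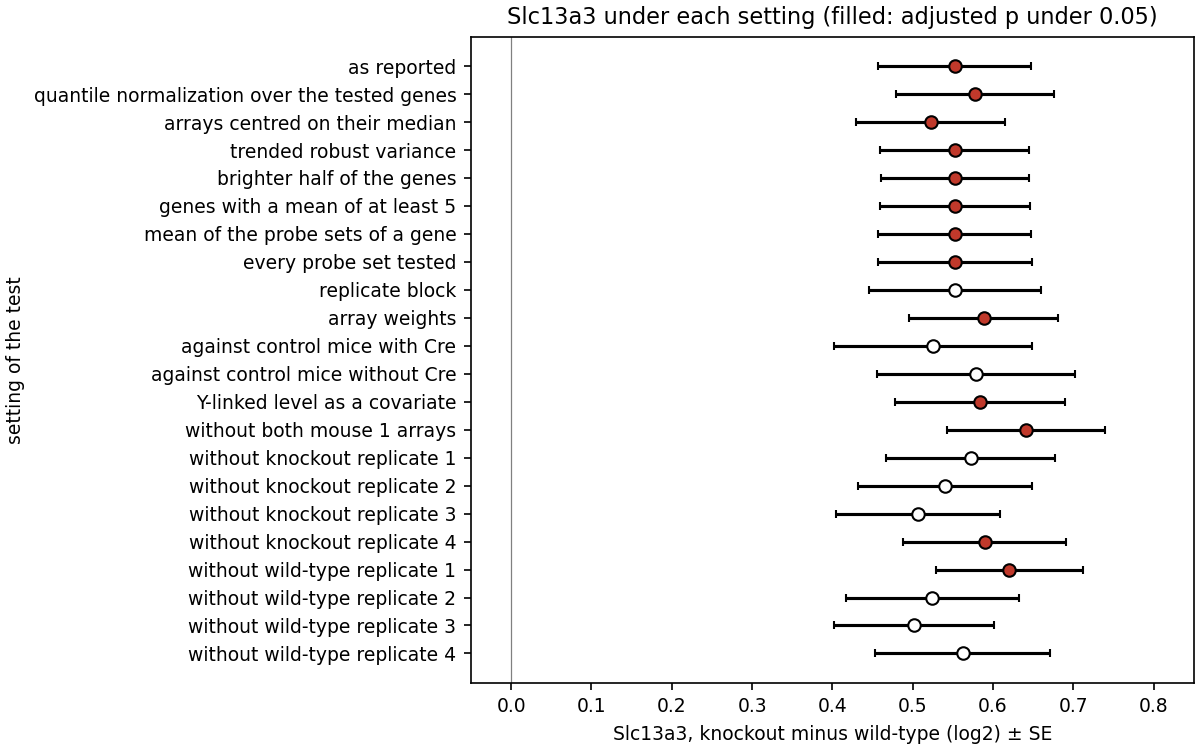
The difference of Slc13a3 between knockout and wild-type livers in log2 units with its SE is shown for the reported test and 21 alternatives, with filled points where the adjusted p was under 0.05. All estimates lie between 0.50 and 0.64, and the open points are mostly settings with fewer arrays.

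Glul encodes glutamine synthetase, which joins ammonium to glutamate. It was measured at 12.06, 12.03, 12.00 and 12.13 in knockout mice 1 to 4 and at 12.44, 12.23, 12.19 and 12.17 in wild-type mice 1 to 4. No knockout array reached the wild-type range, but the gap between the nearest arrays was small and wild-type mouse 1 was the farthest from the rest. The 95% interval of the difference ran from -0.38 to -0.02, the exact permutation p was 0.0286, the smallest possible, and the adjusted p over all genes was 0.157 to 0.631 over 21 alternatives. Without wild-type mouse 1 the difference was -0.14 (adjusted p = 0.401). Groups did not overlap for Glul and Slc13a3, 2 of the 9 genes, and for 10.7% of all genes (5.26% higher, 5.49% lower). Among the brighter 11090 genes, where all 9 lie, groups did not overlap for 1547 (493 higher, 1054 lower). A second and much dimmer Glul probe set differed by -0.32 ± 0.16 (adjusted p = 0.344), with overlapping groups.

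Oat encodes ornithine aminotransferase, a mitochondrial enzyme that takes an amino group from ornithine and so forms glutamate. Its level was 12.38, 12.41, 12.50 and 12.63 in knockout mice 1 to 4 and 12.40, 12.19, 12.22 and 12.25 in wild-type mice 1 to 4. Only wild-type mouse 1 reached into the knockout range, where it lay above knockout mouse 1. The interval of the difference ran from 0.03 to 0.40, and the exact permutation p was 0.0571. Without wild-type mouse 1 the difference was 0.26 (adjusted p = 0.197, beside 0.139 to 0.567 over 21 alternatives). Within each array, Oat minus Glul was 0.32, 0.38, 0.50 and 0.49 in the knockout mice and -0.03, -0.04, 0.04 and 0.08 in the wild-type mice. This within-array difference was picked after the values were seen and was given no test. It did not overlap between the groups, but neither did Glul alone. The share of gene pairs that separate the groups in this way was not counted.

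**Figure D3:**
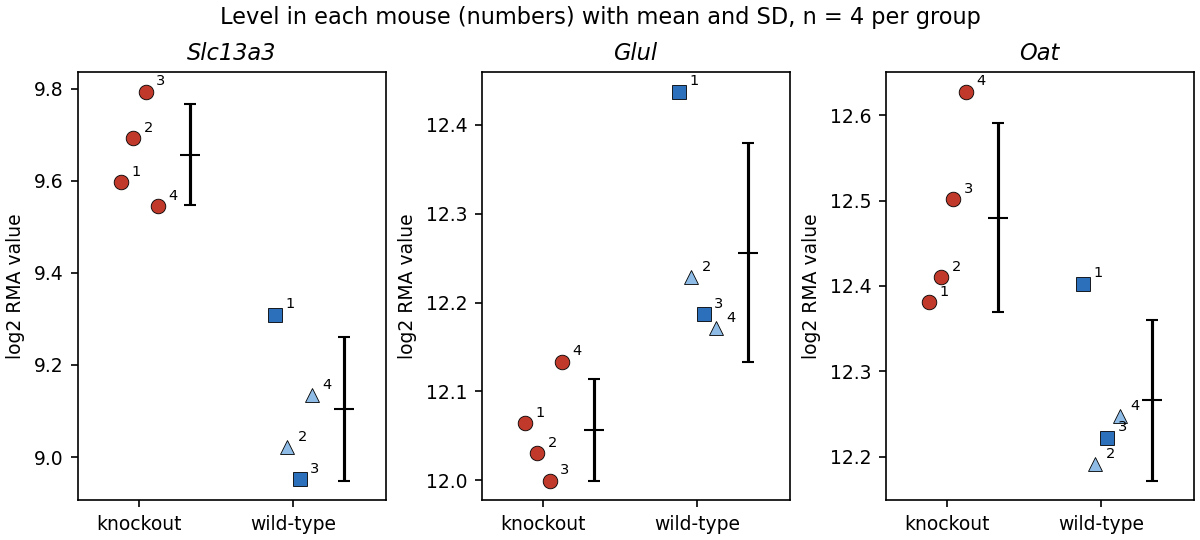
Log2 levels of Slc13a3, Glul and Oat are shown for each mouse, numbered within its group, with the group mean and SD beside the points (n = 4) and a separate vertical scale per gene that does not start at 0. Wild-type mouse 1 is the highest wild-type array for all 3 genes.

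The other pericentral transporters differed by less than their spread allowed to be called. Rhbg, which carries ammonia across the hepatocyte membrane, was at 8.88, 9.39, 9.45 and 9.51 in knockout mice 1 to 4 and at 9.54, 9.51, 9.58 and 9.51 in wild-type mice 1 to 4. The wild-type arrays were nearly equal, and knockout mouse 1 accounted for most of the difference of -0.22 ± 0.13 (adjusted p = 0.396), which was -0.08 without it (0.645, beside 0.273 to 0.684 over 21 alternatives). The same array was high in Dbp. Slc1a2, a glutamate importer that is best known from astrocytes, was at 9.29, 9.18, 9.17 and 9.24 in the knockout and at 9.43, 8.88, 8.87 and 9.03 in the wild-type livers. The 4 knockout arrays lay above 3 of the wild-type arrays and below wild-type mouse 1. Its difference was 0.16 ± 0.12 (adjusted p = 0.513), and 0.29 without wild-type mouse 1 (0.134, beside 0.134 to 0.890 over 21 alternatives).

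Axin2, a scaffold of the beta-catenin destruction complex that Wnt signalling itself induces, is a general readout of the pathway. It was at 7.35, 7.25, 7.35 and 7.15 in the knockout and at 7.44, 7.09, 7.23 and 7.40 in the wild-type livers. The groups overlapped across nearly their whole range, and the 95% interval of the difference ran from -0.22 to 0.19, which bounds a change at this probe set to about the size seen for Glul and Oat. Its second, dimmer probe set differed by 0.06 ± 0.11 (adjusted p = 0.821).

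Lgr5, an R-spondin receptor and Wnt target, was at 7.91, 7.91, 8.51 and 8.08 in the knockout and at 8.07, 8.20, 7.88 and 8.33 in the wild-type livers. The highest array was knockout mouse 3, and without it the difference was -0.15 (adjusted p = 0.577, beside 0.577 to 0.993 over 21 alternatives). The interval from -0.33 to 0.30 was wider than that of Axin2. A dimmer Lgr5 probe set differed by 0.16 ± 0.09 (adjusted p = 0.405).

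Tbx3, a T-box transcription factor downstream of beta-catenin in liver, was at 8.94, 8.44, 9.04 and 8.52 in the knockout and at 9.30, 8.67, 8.96 and 9.11 in the wild-type livers. Its arrays were widely spread, with SDs of 0.30 and 0.26, and the groups overlapped. The difference of -0.28 ± 0.16 did not pass (adjusted p = 0.416), and the interval ran from -0.63 to 0.08. It was -0.18 without knockout mouse 2 or without wild-type mouse 1 and ran from -0.40 to -0.16 over 21 alternatives.

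Cdh1 encodes E-cadherin, the adhesion protein of epithelial cells, which in the liver is found on periportal hepatocytes and on bile duct cells. It was at 10.64, 10.71, 10.78 and 10.73 in the knockout and at 10.38, 10.67, 10.59 and 10.77 in the wild-type livers. The knockout arrays overlapped the upper part of the wild-type range, and the lowest array was again wild-type mouse 1. The difference was 0.11 ± 0.09 (adjusted p = 0.557), with an interval from -0.09 to 0.31, and was 0.04 without wild-type mouse 1 (0.840, beside 0.409 to 0.998 over 21 alternatives). A second, much dimmer probe set differed by 0.07 ± 0.14. The 2 classes of control stood at 10.49 with Cre and 10.72 without it, so that the difference was 0.23 against the first (adjusted p = 0.409) and -0.0013 against the second (0.998). Of 7 bile duct markers 3 lay among the brighter 11090 genes. Epcam was at 5.39 to 5.85 and Sox9 at 7.78 to 8.58. The summed linear level of the 7 ran from 607 to 738 in the knockout and from 645 to 775 in the wild-type livers. None of the 7 passed, Sox9 standing at -0.29 ± 0.13, Cldn4 at 0.15 and Krt19 at 0.12. At an unadjusted p under 0.05, 1 was lower, 14.3% of the list beside 8.06% of all genes.

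Wild-type mouse 1 was high in most of the pericentral genes within its group. It was the highest of the 4 wild-type arrays for 6 of the 8 pericentral genes (Glul, Oat, Axin2, Tbx3, Slc1a2 and Slc13a3) and the lowest for Cdh1. The share of all genes for which this array was the highest was not counted, so the 6 cannot be read as a trait of zonation. The mean deviation of the 8 genes from their own means was 0.15 in this mouse, against -0.12, -0.11 and 0.02 in wild-type mice 2, 3 and 4 and -0.05 to 0.14 in the knockout mice. Over 16 other pericentral genes the same quantity was 0.21 in wild-type mouse 1 and -0.14 to 0.05 in the other 7 arrays. Cyp2a5 and Nr1i3 weighed most in that 0.21. In this mouse Cyp2a5 was at 8.58 against 7.16 to 8.38 in the other 7 arrays, and Nr1i3 at 11.05 against 9.64 to 10.67. Cyp2e1 was at 13.65 against 13.43 to 13.59. This mouse carried Cre with 1 floxed allele and was 1 of the 2 arrays high in Dbp, whose part in these levels was not tested. Between the 2 classes of control none of the 9 genes passed in limma, and over all genes 0 passed and 3.03% had an unadjusted p under 0.05.

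The rest of the zonation programme gave no call. Over all genes, 16.7% had an unadjusted p under 0.05, 8.61% higher and 8.06% lower, and among the brighter 11090 genes 6.65% were higher and 13.2% lower by that measure. Of 16 other pericentral hepatocyte genes none passed limma, 3 were lower and none higher at an unadjusted p under 0.05, and the median difference was -0.14, beside -0.02 over the brighter genes, among which all 16 lie. The 3 lower genes were 18.8% of the list, beside 13.2% of the brighter genes. Cyp2e1, a microsomal oxidase of ethanol and other small molecules, differed by -0.06 ± 0.07 and Cyp1a2, an oxidase of aromatic amines, by 0.06 ± 0.08. The smallest adjusted p belonged to Cyp2a5, at -0.71 ± 0.23 (0.166), followed by the glutathione transferase gene Gstm1 at -0.26 ± 0.11 (0.282) and the sterol hydroxylase gene Cyp27a1 at -0.19 ± 0.08 (0.290). Cyp2a5 passed at adjusted p = 0.0302 without wild-type mouse 2 and at 0.0486 against the controls with Cre, and its range over 21 alternatives was 0.0302 to 0.585. Against the controls without Cre it differed by -0.27 (0.585), and the controls with Cre stood above those without it by 0.88, more than the knockout difference itself. Its probe set may also read the near-identical Cyp2a4.

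Of 16 other periportal genes none passed either, 2 were higher and none lower at an unadjusted p under 0.05, and the median difference was -0.01, beside -0.02 over the brighter genes, among which all 16 lie. The 2 higher genes were 12.5% of the list, beside 6.65% of the brighter genes. Hsd17b13, a lipid droplet dehydrogenase, differed by 0.31 ± 0.09 (adjusted p = 0.140), the urea cycle lyase gene Asl by 0.26 ± 0.08 (0.147) and the protease gene Ctsc by -0.22 ± 0.11 (0.327). Cyp2f2, a P450 of periportal hepatocytes, had group means of 13.12 and 13.13. Groups did not overlap for 3 of the 16, beside 10.7% of all genes and 1547 of the brighter 11090 genes. The 3 were Hsd17b13 and Asl, with positive differences, and Igfals at -0.15 ± 0.08 (0.379). Igfals, a carrier of insulin-like growth factors, was named after its values were seen.

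Genes of the Wnt pathway were followed from ligand to target. Of 25 genes for Wnt ligands, R-spondins and their secretion none passed limma, 2 were higher and 1 lower at an unadjusted p under 0.05, and 21 of 25 had positive differences with a median of 0.10. The 3 genes were 12.0% of the list, below the 16.7% of all genes. Most of these genes are dim, and the dimmer 11090 genes as a whole had a median of 0.07 with 69.8% above 0. Rspo3, the R-spondin of the central vein, was at 7.82, 7.96, 7.87 and 7.84 in the knockout and at 8.06, 7.98, 8.13 and 8.04 in the wild-type livers. Its groups were separated by a narrow gap and the difference of -0.18 ± 0.07 did not pass (adjusted p = 0.253). Rspo1 lay the other way at 0.21 ± 0.09 (0.289), as did Wnt8a at 0.22 ± 0.10 (0.287). Wnt2 and Wnt9b, the ligands of liver endothelium, differed by 0.03 ± 0.09 and 0.15 ± 0.11.

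Among 17 receptor genes none passed limma, 1 was higher and 3 lower at an unadjusted p under 0.05, and the median was -0.02. The 4 genes were 23.5% of the list, beside 16.7% of all genes and 19.8% of the brighter 11090 genes, among which 14 of the 17 lie. The gene nearest the threshold was Lgr4, the R-spondin receptor that hepatocytes carry across the lobule, at 10.28, 10.44, 10.39 and 10.32 in the knockout and 10.77, 10.76, 10.72 and 10.59 in the wild-type livers. All knockout arrays lay below all wild-type arrays, at a difference of -0.36 ± 0.08 (adjusted p = 0.0526, 0.0255 to 0.258 over 21 alternatives, of which 4 passed). The 4 were a trended robust variance, both filters on dim genes and centred arrays. The Frizzled receptor genes Fzd8 and Fzd7 lay in the same direction at -0.27 ± 0.08 and -0.28 ± 0.11, with adjusted p of 0.147 and 0.237. Of the 17 receptor differences 10 were negative and 7 positive. Of 13 inhibitor genes none passed and 1 was higher at an unadjusted p under 0.05, with a median of 0.08. That 1 gene was 7.69% of the list, beside 8.61% of all genes higher. The DKK co-receptor genes Kremen2 and Kremen1 differed by 0.21 ± 0.08 and 0.24 ± 0.11 (adjusted p = 0.203 and 0.306) and Wif1, a secreted Wnt-binding protein gene, by 0.17 ± 0.10 (0.414).

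Inside the cell, none of 18 genes of beta-catenin breakdown and transcription passed limma, and the median was 0.03. At an unadjusted p under 0.05, 1 was higher and 2 lower, together 16.7% of the list beside 16.7% of all genes. All 18 lie among the brighter 11090 genes, of which 19.8% had such a p. Tcf7l1, mostly a repressor among the TCF factors, differed by 0.46 ± 0.15 (adjusted p = 0.177), and the beta-catenin co-factor gene Pygo2 by -0.23 ± 0.09 (0.225) and the destruction complex gene Amer1 by -0.18 ± 0.07 (0.259). Ctnnb1, which encodes beta-catenin, was at 11.11 and 11.20, a difference of -0.09 ± 0.08. Beta-catenin is controlled mainly through the stability of its protein, which an RNA array does not measure. Of 11 further Wnt target genes none passed, 1 was higher and none lower at an unadjusted p under 0.05, and the median was 0.01. That 1 gene was 9.09% of the list, beside 8.61% of all genes higher and 6.65% of the brighter genes, among which 10 of the 11 lie. Lef1 differed by 0.27 ± 0.08 (adjusted p = 0.159), Apcdd1 by 0.29 ± 0.14 (0.327) and Myc by 0.45 ± 0.23 (0.342), with knockout mouse 1 at 8.72 and the other 3 knockout arrays at 7.38 to 7.84. Without knockout mouse 1 the Myc difference was 0.19. The feedback inhibitors Notum and Rnf43, which respond to Wnt in liver, stood at 0.01 ± 0.11 and -0.12 ± 0.13. Znrf3, of the same list, stood at 0.27 ± 0.14 (limma adjusted p = 0.358). Of 10 adherens junction genes that work with Cdh1 none passed, also at an unadjusted p under 0.05, Ctnnd1 standing at -0.15 and Nectin1 at 0.15.

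**Figure D4:**
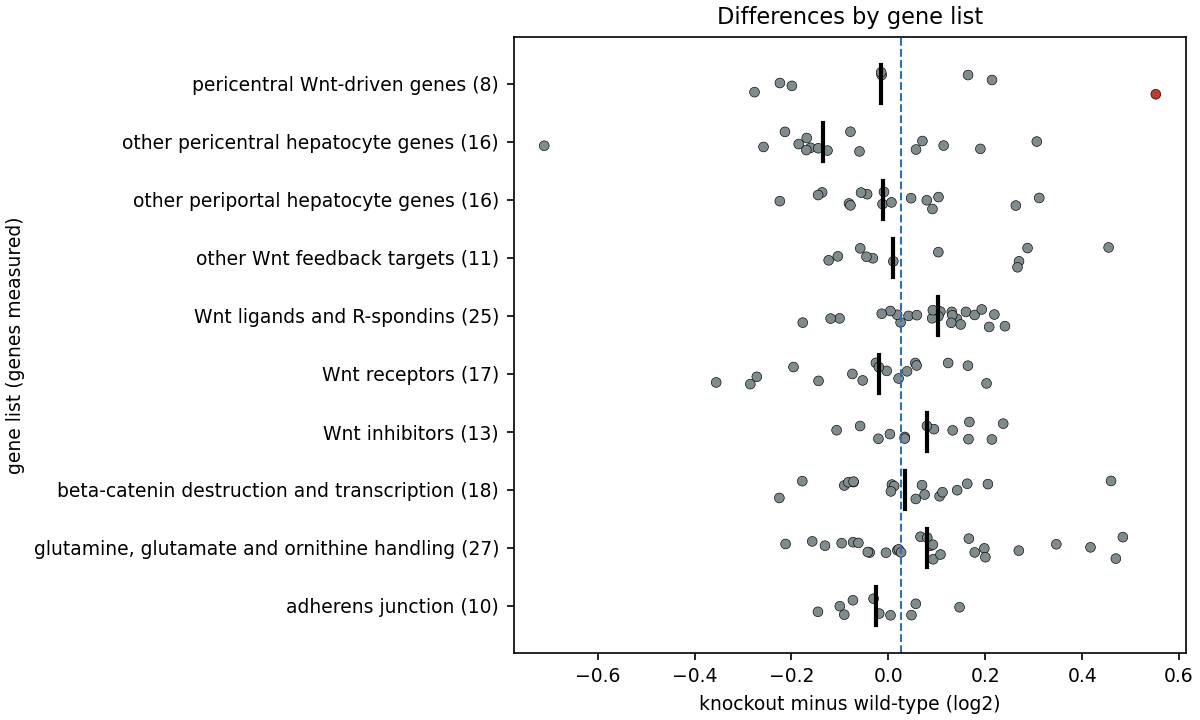
Each point is 1 gene, placed by its knockout minus wild-type difference in log2 units, for the pericentral Wnt-driven genes and 9 related lists, with black bars at the list medians and a dashed line at the median of all genes, 0.03. Slc13a3, in red, is the single gene past the threshold. The list medians run from -0.14 for other pericentral genes to 0.10 for Wnt ligands.

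Genes that handle glutamine, glutamate and ornithine beside Glul, Oat and the transporters were listed as well. None of 27 passed limma. At an unadjusted p under 0.05, 6 were higher and none lower, together 22.2% of the list beside 8.61% of all genes higher and 16.7% in either direction. Of the 27, 23 lie among the brighter 11090 genes, of which 6.65% were higher and 19.8% passed in either direction by that measure. The median was 0.08 beside 0.03 over all genes. Slc7a2, an importer of arginine and ornithine, was at 11.73, 11.38, 11.54 and 11.55 in the knockout and 11.32, 11.11, 10.90 and 10.98 in the wild-type livers. Its groups did not overlap, and the difference was 0.47 ± 0.11 (adjusted p = 0.0629, 0.0314 to 0.273 over 21 alternatives, of which 4 passed, among them the test without wild-type mouse 1 at 0.0473). The cytosolic aspartate aminotransferase gene Got1 differed by 0.42 ± 0.10 (adjusted p = 0.0755, 0.0337 to 0.338 over 21 alternatives, of which 2 passed) and the glutamate to proline and ornithine synthesis gene Aldh18a1 by 0.48 ± 0.13 (0.108). Knockout arrays of Got1 and Aldh18a1 also lay above all wild-type arrays, and groups did not overlap for 4 of the 27, beside 10.7% of all genes.

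Marker genes of the other liver cells were summed in each array. The summed linear level of 12 endothelial markers, the cell type that makes Wnt ligands in the lobule, ran from 12399 to 13599 in the knockout and from 10859 to 12325 in the wild-type livers, without overlap. Taken singly, groups did not overlap for 1 of the 12, beside 10.7% of all genes. The share of like-sized gene sets whose sums separate the groups was not counted. None of the 12 passed limma and 2 were higher at an unadjusted p under 0.05, 16.7% of the list beside 8.61% of all genes. All 12 lie among the brighter genes, of which 6.65% were higher. Of the 12 differences 10 were positive and 2 negative, with a median of 0.10. Those of smallest adjusted p were Lyve1 at 0.37 ± 0.14, Clec4g at 0.17 and Cdh5 at 0.16. The sums of 6 lymphocyte markers ran from 555 to 697 and from 481 to 513, also without overlap. Taken singly, groups did not overlap for 1 of these 6. At an unadjusted p under 0.05, 3 of 6 were higher, beside 8.61% of all genes, and none passed the threshold (Cd3e 0.37, Ms4a1 0.28, Nkg7 0.31). The 7 Kupffer cell markers overlapped, at 7063 to 9377 and 6332 to 8559, with Cd68 at 0.36 ± 0.09 (adjusted p = 0.0921), Vsig4 at 0.12 and Csf1r at 0.16, which ran from -0.01 to 0.30 over 21 alternatives. The 8 stellate cell markers, at 7175 to 7521 and 7209 to 7931, overlapped too, with Reln at -0.18, Col3a1 at -0.18 and Acta2 at -0.24. The Acta2 value was -0.03 without wild-type mouse 2, whose array was at 9.82. The 7 hepatocyte markers lay at 62601 to 64838 and 63844 to 64583, with Fgb at -0.09, Cebpa at 0.13 and Apoa1 at -0.04. The part of these levels in the differences of Slc13a3, Glul and Oat was not tested.

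The genes whose profile over the 8 arrays was most like that of Glul were the keratin gene Krt23, with a Pearson correlation of 0.97, the kinase gene Taok2 at 0.96 and the Mediator subunit gene Med7 at 0.96. This likeness is a description over 8 arrays that include the difference between the groups. Krt23 averaged 5.56 ± 0.20 in knockout mice and 6.16 ± 0.32 in wild-type mice (SD, n = 4 each), a difference of -0.60 ± 0.15 that did not pass (limma adjusted p = 0.0885). Taok2 differed by -0.21 ± 0.08 and Med7 by -0.18 ± 0.08.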

How the data were processed

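Values were the series' table of expression values for 39137 probe sets on 8 arrays, which the authors deposited on a log2 scale after RMA with oligo version 1.24, per the submitters' processing notes. The log2 scale was inferred from the range of 1.28 to 13.88. RMA equalises the arrays' distributions and pulls large differences toward 0. The chip definition is not given in the sources used here, nor is a genome build. Platform annotation gave 1 symbol for 23521 probe sets, several for 1814 and none for 13802. The brightest single-symbol probe set stood for each of 22180 genes.

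Linear models for knockout minus wild-type (lmFit, eBayes) were fitted over all genes in R 4.3.3 with limma 3.58.1, two-sided, with Benjamini-Hochberg adjustment and a threshold of 0.05, beside an exact permutation test over 70 assignments for single genes. The step was tested on simulated data, where 34.1% of changes of 0.5 log2 units and 78.5% of changes of 1 were recovered. False calls were 5.28% of the calls. Genes short of the threshold may therefore still differ. Labels do not say whether mice shared litters, and the test treated the mice as independent. Each limma p-value weighs a difference against the spread between mice within the groups, drawn toward that of all genes. The small number of arrays limits the precision.

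The members and lists were chosen with earlier results of these data known. Named genes are the 9 measured members, up to 3 of smallest adjusted p from each of 16 lists (199 of 219 genes measured, none of the blood markers), and the 3 genes most like Glul. The same step for Gls2 could not be run. Cyp2e1, Cyp1a2, Cyp2f2, Nr1i3, Wnt2, Wnt9b, Igfals, Notum, Rnf43, Znrf3, Ctnnb1, Alb, Hnf4a, Epcam and Dbp were named after their values were seen. Alternatives changed the normalization, variance model, filter, probe set rule, controls, covariates and arrays used. Promoters came from the RefSeq table of GRCm38.p6. Plots used matplotlib version 3.10.9.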

Additional observations from a re-analysis of the deposited data

How the results depend on the processing

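The 9 members were recomputed under 21 alternatives. Glul, Oat, Tbx3, Rhbg and Slc1a2 kept their direction and stayed short of the threshold in all 21, and Slc13a3 kept its direction in all 21. The Slc13a3 difference missed the threshold with the mouse number as a replicate block (0.55, adjusted p = 0.0603), against controls with Cre (0.53) and against controls without Cre (0.58), so 0 members passed in each of these 3 settings, and with 1 array left out it was 0.50 to 0.62 with 0 to 1 members past. Deviations of same-numbered arrays correlated at 0.273 for mouse 1, whose 2 arrays were high in Dbp. They correlated at -0.0217, 0.0308 and -0.102 for the other mouse numbers, and arrays of unlike number at 0.116 or less. The labels do not say whether the numbers pair the mice. The block moved the calls over all genes from 96 higher and 159 lower to 68 and 142. Differences near 0 changed sign. Axin2 was positive after quantile normalization (0.023), with the mean of its probe sets (0.023), with array weights (0.0098), against controls without Cre (0.030), with the Y-linked covariate (0.035) and without both mouse 1 arrays (0.010), and ran from -0.079 to 0.036 with 1 array left out. Lgr5 was positive after quantile normalization (0.030), with the mean of its probe sets (0.075), with array weights (0.0027), against controls with Cre (0.13) and without both mouse 1 arrays (0.031), and ran from -0.15 to 0.056 with 1 array left out. Cdh1 was -0.0013 against controls without Cre. The cause was not tested.

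Over all genes, higher and lower calls numbered 159 and 300 with a trended robust variance, 150 and 289 with a mean of at least 5, 123 and 319 among the brighter 11090 genes, 86 and 271 with centred arrays (24.1% higher against 37.6%), 131 and 245 with array weights, 13 and 16 against controls with Cre, 15 and 32 against controls without Cre, 45 and 106 with the Y-linked covariate, 28 and 37 without both mouse 1 arrays, and 29 to 65 and 60 to 119 with 1 array left out. In the other lists, where 0 passed, there were 2 higher and 1 lower with a trended variance and among the brighter genes, 1 and 1 with a mean of at least 5, 1 lower with centred arrays and 1 lower against controls with Cre, and 0 to 1 in each direction with 1 array left out. Fewer arrays leave less precision.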
